A study of Mus musculus with 14 samples.

Results

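The potassium channel gene family was followed while mouse fibroblasts were turned chemically into cells resembling retinal pigment epithelium. Its members were the rows of the count table whose symbol begins with Kcn, continues with letters and ends in a number, without Kcnj13 and Kcne2. They came to 90 of 55291 symbols: 40 subunits of voltage-gated channels, 14 of inward rectifiers, 14 of two-pore leak channels, 8 of calcium- or sodium-activated channels and 14 auxiliary subunits. Of the 90, 89 had a count in at least 1 library, and 77 passed the filter on low counts and were tested.

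Potassium channels let potassium leave or enter the cell and so set the membrane voltage. Voltage-gated members open when the membrane depolarises, calcium- and sodium-activated members when those ions rise inside the cell, inward rectifiers pass current best near rest and take up potassium around glial cells, and two-pore members carry the background leak. Retinal pigment epithelium (RPE), the pigmented layer behind the photoreceptors, moves potassium between the space around the photoreceptors and the blood side of the retina, and relies on inward rectifiers and M-type voltage-gated channels to do so. Auxiliary subunits form no pore and change how the pore subunits are assembled, moved and gated.

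RNA was sequenced from 14 libraries of C57BL/6J cells in 5 groups. Mouse embryonic fibroblasts (MEF, n = 3), from embryos at E13.5, were the starting cells. Cells taken at day 7 (D7, n = 3) and day 18 (D18, n = 3) were in M7 medium. That medium combines bFGF with CHIR-99021 (a GSK3 inhibitor), LDN193189 (against BMP receptors), A 83-01 (against TGF-beta receptors), the Hedgehog agonist Hh-Ag1.5, RG108 (against DNA methyltransferases), BMS-345541 (against IKK) and CKI-7 (against casein kinase), in a neural base with N2 and B27 supplements. Cells at day 32 (D32, n = 3) had moved to M3 medium with serum replacement, the ROCK inhibitor Y27632, nicotinamide, retinoic acid and activin A. Primary RPE (P-RPE, n = 2) was the tissue standard. The labels put M7 medium on the MEF libraries and embryonic tissue on P-RPE, give no age for the P-RPE mice, and say that cells with a successful look were scraped for RNA, so treated groups are selected cells. They do not say whether replicates were separate cultures or animals, and the p-values measure only the spread between these libraries.

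Library totals ran between 32352405 and 41390196 counts, so that 1 count was worth 0.0227 to 0.0305 CPM, counts scaled to a fixed library size (here the TMM-scaled one). The coefficient of biological variation over all genes was 0.0408 among MEF libraries and 0.158 to 0.250 in the other groups. All 12 RPE markers were above 1 CPM in D32 and in P-RPE, with summed levels of 4577 to 8701 CPM in D32 and 58305 to 65131 CPM in P-RPE. At D18 the sum was 17.2 to 25.3 CPM with Ttr, Otx2 and Tyr at 0. D18 libraries carried all 8 astrocyte markers at a sum of 26199 to 38872 CPM, led by Gfap. P-RPE carried all 8 rod and cone markers (909 and 2512 CPM in replicates 1 and 2), all 8 macrophage markers (1035 to 1079 CPM) and all 8 endothelial markers (672 to 785 CPM). In D32 libraries those 3 sums were 10.6 to 54, 119 to 204 and 170 to 228 CPM. D18 replicate 3 had a fibroblast marker sum of 3065 CPM, against 13874 and 12079 CPM in replicates 1 and 2. In bulk RNA, a smaller number of cells of a type and less RNA in each such cell cannot be told apart.

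The summed level of the family, per kb of exon so that genes can be added, was 38.2 ± 1.63 CPM per kb in MEF and 89.7 ± 6.37 at D7 (SD, n = 3 each). D18 had 286 ± 37.1 CPM per kb, D32 78.2 ± 4.16 (n = 3 each) and P-RPE 152 ± 14.5 (n = 2). The groups differed in which class made up this sum. At D18 inward rectifiers were 55.1% ± 1.14 of it, and Kcnj10 alone was 45.7% ± 0.812. In P-RPE voltage-gated subunits were 60.2% ± 1.74. In MEF the auxiliary subunit Kcnab1 (18% ± 0.0903) and the calcium-activated Kcnn4 (15.9% ± 0.956) led. At D7 the auxiliary Kcnip3 (15.2% ± 3.83) and Kcne4 (14.4% ± 1.49) did. At D32 Kcne4 made up 14.9% ± 3.77 and Kcnj10 12.8% ± 1.71.

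**Figure D1:**
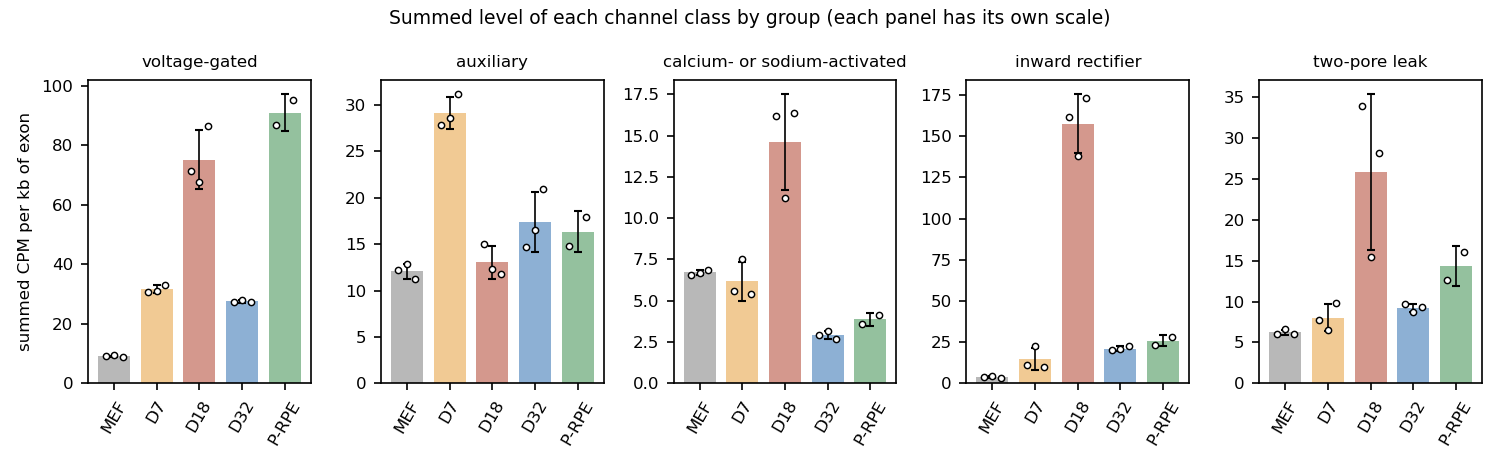
Summed level of each channel class, in CPM per kb of exon, for MEF, D7, D18, D32 and P-RPE. Bars are means, error lines are SD (n = 3, P-RPE 2) and circles are libraries. Inward rectifiers stand at 157 CPM per kb at D18, voltage-gated subunits at 91.1 in P-RPE and auxiliary subunits at 29.2 at D7.

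Promoter sequences are shown for 5 genes that stood high in different groups: Kcnn4 in MEF, Kcnc1 at D7, Kcnj10 and Kcns1 at D18 and Kcna2 in P-RPE. Each is the 250 bases before the first listed start in RefSeq (GRCm38.p6), 5′ to 3′ on the gene's strand, with CpG dinucleotides in capitals, the sites where DNA methyltransferases act. Kcnn4 is at chr7:24370013-24370262 on the plus strand, Kcnc1 at chr7:46396218-46396467 plus, Kcnj10 at chr1:172340960-172341209 plus, Kcns1 at chr2:164171114-164171363 minus and Kcna2 at chr3:107101317-107101566 plus.
Kcnn4: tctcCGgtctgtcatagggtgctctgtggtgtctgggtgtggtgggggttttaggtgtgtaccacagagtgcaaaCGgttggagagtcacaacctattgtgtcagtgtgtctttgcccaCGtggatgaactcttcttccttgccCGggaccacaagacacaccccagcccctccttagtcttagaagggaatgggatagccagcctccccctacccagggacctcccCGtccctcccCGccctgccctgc
Kcnc1: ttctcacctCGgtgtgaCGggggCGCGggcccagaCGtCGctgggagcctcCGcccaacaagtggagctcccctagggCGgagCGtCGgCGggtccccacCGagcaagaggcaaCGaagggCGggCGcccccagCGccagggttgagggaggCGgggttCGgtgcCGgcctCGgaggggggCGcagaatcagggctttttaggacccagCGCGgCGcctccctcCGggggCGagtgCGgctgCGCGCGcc
Kcnj10: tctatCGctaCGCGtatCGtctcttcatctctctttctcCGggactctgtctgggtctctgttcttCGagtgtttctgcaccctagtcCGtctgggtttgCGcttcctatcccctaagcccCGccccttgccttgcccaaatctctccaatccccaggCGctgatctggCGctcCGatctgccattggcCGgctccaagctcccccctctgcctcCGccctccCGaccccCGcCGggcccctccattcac
Kcns1: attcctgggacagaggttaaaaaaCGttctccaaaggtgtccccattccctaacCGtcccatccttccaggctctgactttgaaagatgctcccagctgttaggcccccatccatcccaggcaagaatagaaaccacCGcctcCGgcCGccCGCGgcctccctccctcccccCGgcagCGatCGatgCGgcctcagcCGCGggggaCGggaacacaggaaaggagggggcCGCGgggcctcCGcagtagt
Kcna2: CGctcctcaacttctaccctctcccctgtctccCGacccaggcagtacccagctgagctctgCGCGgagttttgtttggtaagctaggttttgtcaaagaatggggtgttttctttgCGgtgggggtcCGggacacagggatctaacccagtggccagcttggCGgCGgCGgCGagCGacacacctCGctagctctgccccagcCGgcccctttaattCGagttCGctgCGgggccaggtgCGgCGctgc

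The Kcnn4 promoter held 6 CpGs in these 250 bases, against 30 in Kcnc1, 17 in Kcnj10, 17 in Kcns1 and 18 in Kcna2. Of the 90 members, 65 had a promoter window, 250 bases before the start and 50 after. Their median ratio of observed to expected CpG was 0.450, against 0.389 over 27025 genes, and 32% of them were above 0.6, against 36.4% of all genes. Among tested members with a window, the median ratio was 0.740 for the 13 whose mean was highest at D7, 0.449 for 12 highest at D18, 0.256 for 8 highest at D32, 0.375 for 4 highest in MEF and 0.497 for 16 highest in P-RPE. These are descriptions of 1 window per gene, and no test was made. The E-box bound by the RPE factor MITF (CACGTG or CATGTG, either strand) was in a window of 8 of 65 members (12.3%), among them Kcnn4, Kcne4, Kcnj2 and Kcnk5, against 22.7% of all genes. The core bound by OTX factors (TAATCC, either strand) was in 2 of 65 (3.08%), Kcnj9 and Kcng4, against 8.14%.

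More members were higher than lower in each comparison with MEF. In D7 against MEF, 41 of the 77 tested members were higher (53.2%) and 9 lower (11.7%), while 28.5% of all 20562 genes tested were higher and 26.5% lower. Their median log2 change was 1.66, against 0.04 over all genes. In D32 against MEF, 43 were higher (55.8%; all genes, 35.6%) and 9 lower (11.7%; all genes, 24.6%), with medians of 1.72 for members and 0.26 for all genes. In P-RPE against MEF, 47 were higher (61%; all genes, 39.3%) and 11 lower (14.3%; all genes, 31.4%), with medians of 1.90 for members and 0.18 for all genes. These 3 comparisons share the MEF libraries.

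Between successive times, more members were higher than lower at D18 against D7, and more were lower than higher at D32 against D18. In D18 against D7, 26 members were higher (33.8%; all genes, 29.2%) and 17 lower (22.1%; all genes, 27.4%), near the shares of all genes. In D32 against D18, after the change of medium, 16 were higher (20.8%; all genes, 29.9%) and 32 lower (41.6%; all genes, 26.1%), with a median of -0.83 against 0.07. In D32 against P-RPE, 15 were higher (19.5%; all genes, 27.1%) and 27 lower (35.1%; all genes, 26.8%), with a median of -0.24 against 0.02. By class, 19 of 36 voltage-gated subunits tested were higher and 1 lower at D7 than in MEF, 8 and 1 of 12 inward rectifiers, 6 and 1 of 8 calcium- or sodium-activated subunits, 4 and 3 of 11 two-pore genes and 4 and 3 of 10 auxiliary genes. At D32 against D18, 6 voltage-gated subunits were higher and 15 lower, 3 and 5 inward rectifiers, 1 and 5 calcium- or sodium-activated subunits, 3 and 4 two-pore genes and 3 and 3 auxiliary genes. By highest mean, 24 of the 77 stood highest in P-RPE, 20 at D18, 19 at D7, 8 at D32 and 6 in MEF. This ranks means alone, also where libraries of groups overlap, and the same count was not made over all genes.

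**Figure D2:**
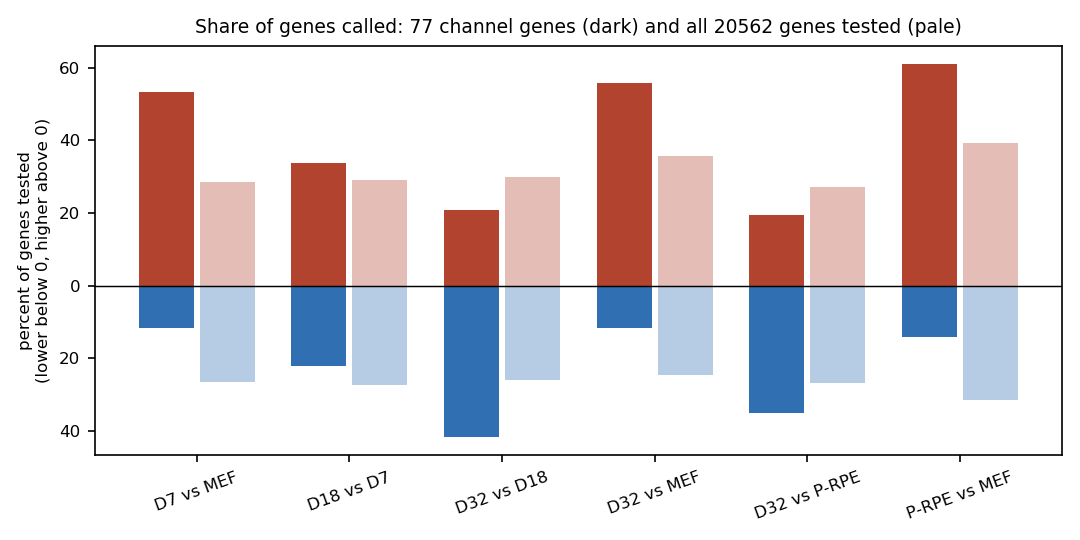
Percent of genes called at an adjusted p under 0.05 in each comparison, higher above the 0 line and lower below it. Dark bars are the 77 channel genes tested and pale bars all 20562 genes tested. The dark bar above the line is the longer one in D7, D32 and P-RPE against MEF, and the dark bar below it is the longer one in D32 against D18 and against P-RPE.

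**Figure D3:**
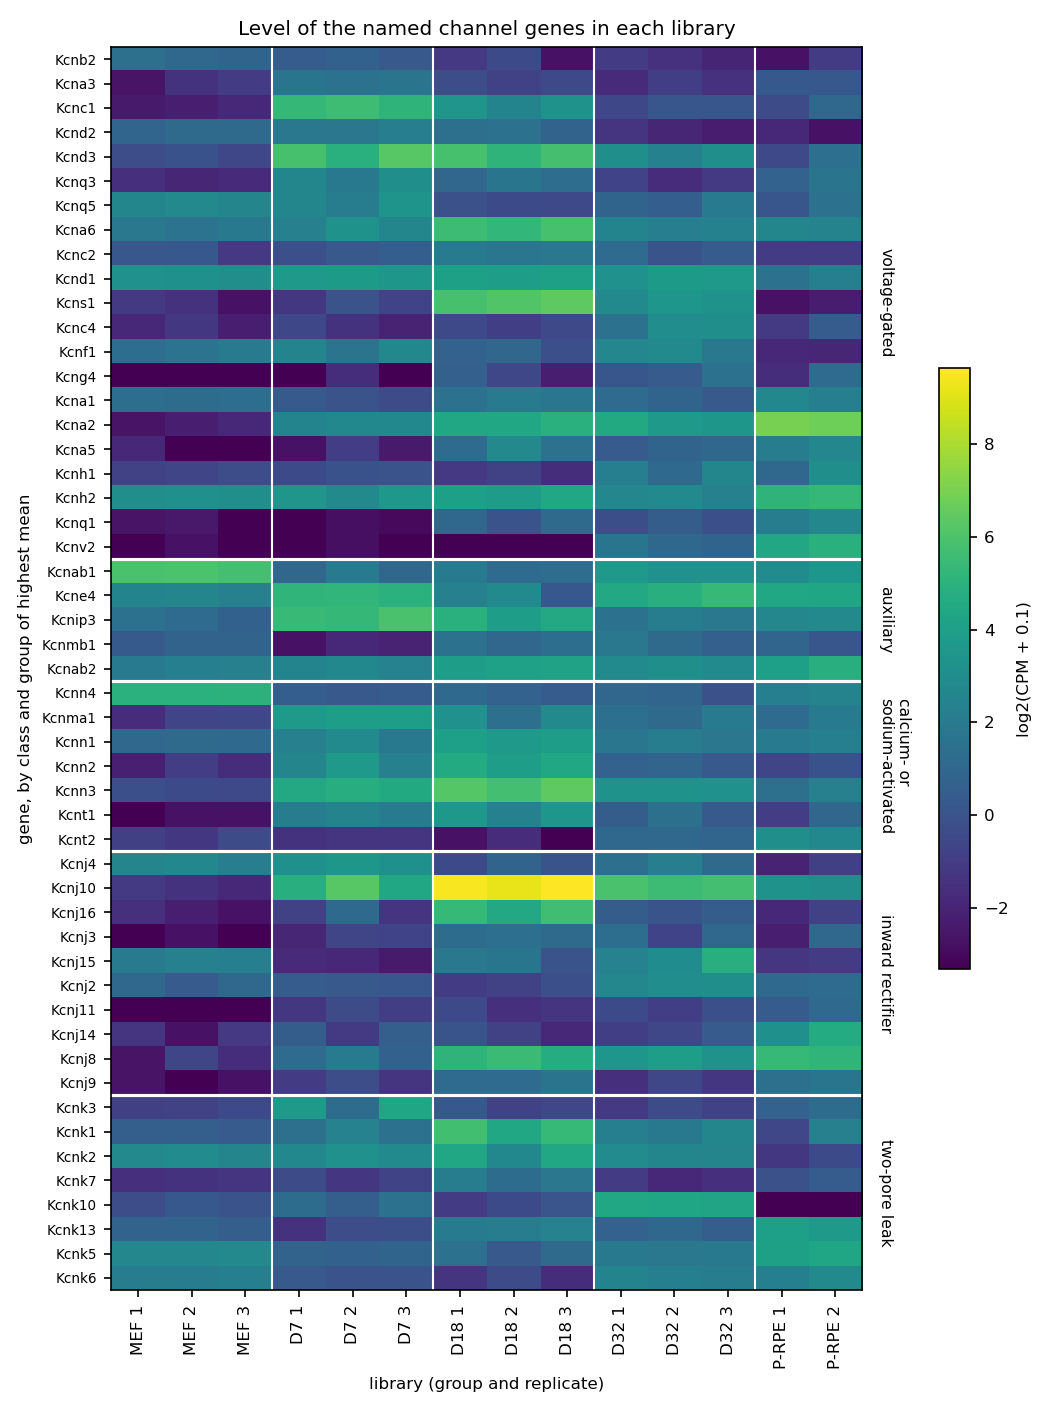
Level of 51 channel genes in each of 14 libraries, as log2 of CPM plus 0.1. Rows are grouped by class and, within a class, by the group with the highest mean. The 3 D18 columns of Kcnj10 are the brightest cells.

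Among the voltage-gated pore subunits, a first set rose by D7 and fell away later. Kcnc1, a Shaw-related subunit of fast-spiking neurons, had 39.1, 48.5 and 34.5 CPM at D7, against 0.0914, 0.111 and 0.170 CPM in MEF, which gave it the highest log2 change of the family there (8.31 ± 0.46 SE, adjusted p = 1.91e-09). It fell to 10.9, 5.66 and 9.86 CPM at D18 (log2 -2.21 ± 0.30) and to 0.601, 1.00 and 1.02 CPM at D32. Kcnd3, which carries the transient A-type current, had 57.6, 29.9 and 76.1 CPM at D7, against 0.731, 0.857 and 0.567 CPM in MEF (log2 6.24 ± 0.52, adjusted p = 4.2e-07). Its D18 libraries overlapped those of D7, and it fell by 2.74 on the log2 scale at D32 against D18. Kcna3, a Shaker-related subunit known from lymphocytes and microglia, was at 3.23, 2.91 and 3.06 CPM at D7, against at most 0.397 CPM in MEF. The macrophage marker sum was 16.4 to 19.5 CPM at D7 and 48.6 to 54 CPM in MEF. Kcnq3, an M-type subunit of neurons, followed the same course, with log2 changes of 4.90 at D7 against MEF, -1.30 at D18 against D7 and -2.77 at D32 against D18. Kcnd2, an A-type subunit, was higher at D7 than in MEF (log2 0.93) and fell at D32 to at most 0.300 CPM, against at least 1.65 CPM at D18. The 8 neuron markers summed to 173 to 211 CPM at D7, against 80.1 to 88.3 CPM in MEF, with 5 higher and 2 lower at D7. Their sum was 217 to 233 CPM in D18 libraries and 104 to 115 CPM in D32 libraries. Rbfox3 averaged 0.0692 CPM in MEF, 20.5 CPM in D7 cells, 0.936 CPM in D18 cells and 0.277 CPM in D32 cells, and Dcx averaged 0.653, 8.56, 0.963 and 0.0174 CPM in that order. Map2, the top neuron marker in D7 and in D18 cells, averaged 121 CPM in the former and 138 CPM in the latter. At D18 against D7, 2 of the 8 were higher, 3 lower and 3 did not pass the test. In MEF 4 of the 8 were above 1 CPM, at D7 all 8, and in D18 and D32 libraries 5, with none at 0 in a whole group. The part of neuron-like cells in the levels of these channels was not tested.

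A second set of voltage-gated subunits was highest at D18. Kcns1, which forms no channel of its own and modifies other voltage-gated subunits, had 58.0, 68.8 and 84.6 CPM at D18, against 0.326, 0.909 and 0.518 CPM at D7 (log2 6.88 ± 0.37, adjusted p = 2.13e-09). At D32 it had 6.96, 11.3 and 9.92 CPM, and in P-RPE 0.0560 and 0.107 CPM, so no D32 library came near the P-RPE level (log2 6.78 ± 0.56). Kcna6, a Shaker-related subunit, had 47.6, 38.6 and 58.9 CPM at D18, against 4.92, 9.77 and 5.98 CPM at D7 (log2 2.81 ± 0.23), and was back to 5.71, 4.51 and 5.06 CPM at D32. Of its exons, 39.6% overlap the gene Gm26673 on the other strand, and whether counting used the strand is not stated. Kcnc2, a Shaw-related subunit, was at 3.34 to 4.07 CPM at D18 and 0.788 to 1.39 CPM at D7. Kcnd1, an A-type subunit, had 14.9 to 16.3 CPM at D18 and 9.31, 13.4 and 12.4 CPM at D32, against 2.80 and 4.72 CPM in P-RPE (log2 1.64 ± 0.22 at D32 over P-RPE). It was also lower in P-RPE than in MEF (log2 -1.24 ± 0.22), and its call in D7 against MEF (log2 0.47) ended in 8 of the other settings, with adjusted p of 0.0617 to 0.141.

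The third set was highest in P-RPE. Kcna2, a Shaker-related subunit of axons, had 5.68, 6.45 and 6.45 CPM at D7, against 0.0609, 0.111 and 0.170 CPM in MEF (log2 5.71 ± 0.39). It was at 22.0, 21.1 and 30.0 CPM at D18 and 126 and 111 CPM in P-RPE. At D32 it had 23.0, 12.6 and 11.3 CPM, and its fall against D18 (log2 -0.64, adjusted p = 0.0245) ended in 5 other settings, with adjusted p of 0.0582 to 0.112.

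Kcnv2, a silent subunit of rod and cone channels whose human gene is mutated in a cone dystrophy, had 3.15, 1.90 and 1.72 CPM at D32 and no count in any D18 library, which puts it at least 81.9-fold higher at D32 against a floor of 3 counts over the D18 group. Against P-RPE, at 22.0 and 29.7 CPM, it was lower at D32 (log2 -3.51 ± 0.39, adjusted p = 6.74e-06). The rod and cone marker sums in the same D32 libraries were 10.6, 33.4 and 54 CPM, in the opposite order to Kcnv2, and the RPE marker sums were 8701, 5791 and 4577 CPM. In P-RPE the rod and cone sums were 909 and 2512 CPM, with the higher Kcnv2 level in the library with the higher sum. Of the 8 rod and cone markers, 6 were above 1 CPM at D32 and 1 at D18, where Crx was at 0. The part of other cells in the Kcnv2 level was not tested.

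Kcnh2, the ERG subunit that repolarises heart muscle, had 6.31, 7.36 and 4.83 CPM at D32, against 34.9 and 39.6 CPM in P-RPE (log2 -2.59 ± 0.23), and it lay at D32 below its D18 level of 14.3 to 21.1 CPM (log2 -1.46). Kcnq1, the pore subunit that Kcne proteins modify, rose at D18 to 1.94, 0.907 and 2.14 CPM, against 3 counts over the D7 group, a ratio of 67.6 with a 95% counting interval of 22.8 to 331. In P-RPE it was at 4.42 and 6.27 CPM, and lower at D32 (log2 -2.48 ± 0.46). Kcna5, a Shaker-related subunit of heart and smooth muscle, had 2.19, 6.88 and 2.74 CPM at D18, against 0.0543, 0.409 and 0.0942 CPM at D7 (log2 4.34, and 5.62 without D7 replicate 2 or 3.66 without D18 replicate 2). Kcna1 was lower at D32 than in P-RPE (log2 -1.74), with 4.69 and 6.49 CPM in P-RPE. Kcnh1, of the EAG group, had 4.66, 2.06 and 6.08 CPM at D32, against 0.337, 0.480 and 0.228 CPM at D18 (log2 3.6 ± 0.55). Its P-RPE replicates differed, at 2.01 and 8.68 CPM.

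Few voltage-gated genes were highest at D32 or in MEF. Kcnc4, Shaw-related, had 2.78, 8.10 and 8.59 CPM at D32, against 0.618, 0.427 and 0.627 CPM at D18 (log2 3.54 ± 0.57), and 0.364 and 1.29 CPM in P-RPE. Kcnf1, a silent modifier subunit, had 6.41, 6.91 and 3.55 CPM at D32, against 0.168 and 0.161 CPM in P-RPE (log2 5.07 ± 0.56), and 1.57, 1.87 and 0.798 CPM at D18. Kcng4, also silent, had no count in MEF and 1.00, 1.24 and 2.77 CPM at D32, at least 57.7-fold higher. Its P-RPE replicates held 0.224 and 2.25 CPM. Kcnb2, of the Shab group, was the gene of this class whose mean was highest in MEF, at 2.65, 1.94 and 1.73 CPM, and it had 0.376, 0.264 and 0.157 CPM at D32 (log2 -2.97 ± 0.61). Kcnq5, an M-type subunit, had its highest mean at D7, with 6.00, 4.23 and 10.5 CPM. It was at 0.815, 0.640 and 0.627 CPM at D18 (log2 -3.31 ± 0.47 against D7). Its D32 libraries (1.73, 1.37 and 3.94 CPM) stayed below MEF (5.82 to 6.80 CPM). The last difference was -1.41 on the log2 scale, and -2.01 without D32 replicate 3.

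The auxiliary subunits included genes lower and genes higher at D7 than in MEF. Kcnab1, a cytoplasmic beta subunit of Shaker channels, had 1.90, 3.75 and 2.00 CPM at D7, against 59.3, 62.8 and 57.1 CPM in MEF (log2 -4.54 ± 0.28, adjusted p = 5.56e-09). It regained part of that at D32, with 12.6, 9.26 and 9.29 CPM, against 3.76, 2.21 and 2.42 CPM at D18 (log2 1.89 ± 0.26). Its sister Kcnab2 moved differently, with 14.7 to 17.7 CPM at D18 against 5.23 to 6.54 CPM at D7 (log2 1.5 ± 0.20) and 7.06 to 8.52 CPM at D32 against 15.6 and 28.2 CPM in P-RPE (log2 -1.53 ± 0.22). Kcnip3, a calcium sensor that binds A-type channels, had 42.5, 40.2 and 61.4 CPM at D7, against 2.86, 2.24 and 1.53 CPM in MEF (log2 4.44 ± 0.30). It fell to 29.6, 14.5 and 22.1 CPM at D18 and to 2.90, 4.33 and 3.5 CPM at D32 (log2 -2.63 ± 0.27 against D18). At D32 and in P-RPE (6.38 and 6.65 CPM) the difference was -0.87, and its call ended in 6 other settings.

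Kcne4, a small subunit that inhibits Kcnq1 channels, was lower at D18 than at either D7 or D32. It had 35.1, 36.9 and 30.6 CPM at D7, against 5.73, 5.86 and 4.94 CPM in MEF (log2 2.63 ± 0.44), then 4.89, 7.26 and 1.08 CPM at D18 (log2 -2.95 ± 0.44 against D7). At D32 it had 22.9, 29.0 and 41.7 CPM (log2 2.82 ± 0.44 against D18), and P-RPE had 20.7 and 20.6 CPM. The difference of D32 from P-RPE was 0.60 ± 0.46 on the log2 scale (adjusted p = 0.294). The D18 library with 1.08 CPM is replicate 3, the one with the low fibroblast marker sum. That sum was 13874 and 12079 CPM in D18 replicates 1 and 2, and 8129 to 8880 CPM at D7, where Kcne4 was higher. The part of fibroblasts in the Kcne4 level was not tested. Kcnmb1, the smooth muscle beta subunit of the large-conductance calcium-activated channel, fell to at most 0.182 CPM at D7, against 1.16 to 1.66 CPM in MEF (log2 -3.5), and rose to 1.84 to 2.75 CPM at D18 (log2 4.17). The smooth muscle and pericyte marker sum was 216 to 303 CPM at D7 and 5112 to 5396 CPM in MEF, and 180 to 218 CPM at D18. Of the 8 markers, 3 were higher at D18 than at D7 and 3 lower. Acta2 had 108 to 122 CPM at D18 against 11 to 12 CPM at D7, and Cnn1 averaged 15.8 against 0.250 CPM. Tagln averaged 0.936 against 0.224 CPM, while Cspg4 averaged 11.7 against 120 CPM. Of the Tagln exons, 67.9% overlap Gm48529 and Pcsk7 on the other strand, so the counts of Tagln are uncertain. All 8 of these markers were above 1 CPM in MEF, 6 at D7 and 5 at D18, none at 0. Their part in the Kcnmb1 level was not tested.

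The calcium-activated subunits exchanged Kcnn4 for its relatives. Kcnn4, the intermediate-conductance channel of proliferating fibroblasts and lymphocytes, had 1.36, 1.14 and 1.27 CPM at D7, against 30.7, 30.6 and 31.7 CPM in MEF (log2 -4.63 ± 0.27, adjusted p = 2.24e-09). It stayed at 0.835 to 2.02 CPM at D18 and D32, below the 4.73 and 5.55 CPM of P-RPE. The small-conductance genes went the other way. Kcnn3 had 22.9, 26.9 and 23.7 CPM at D7, against 0.792, 0.664 and 0.624 CPM in MEF (log2 5.14 ± 0.25), and 73.8, 54.7 and 84.5 CPM at D18. It fell to 10.1, 9.63 and 9.47 CPM at D32 (log2 -2.87 ± 0.20 against D18), above the 2.63 and 4.93 CPM of P-RPE (log2 1.36 ± 0.23). Kcnn2 had 5.79, 12.3 and 4.99 CPM at D7, against at most 0.415 CPM in MEF, then 24.2, 14.6 and 21.4 CPM at D18 and 1.60, 1.77 and 1.15 CPM at D32 (log2 -3.73 ± 0.38 against D18). Kcnn1 changed less, with 12.9 to 16 CPM at D18 against 3.65 to 7 CPM at D7 (log2 1.51 ± 0.22).

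Kcnma1, the pore subunit of the large-conductance channel, had 12.2, 14.5 and 15 CPM at D7, against 0.213, 0.553 and 0.567 CPM in MEF (log2 4.95 ± 0.50). Its lower values at D18 (9.19, 2.64 and 7.24 CPM) and D32 were called, but each call ended in several other settings, with adjusted p of up to 0.0607 for D18 against D7 and 0.158 for D32 against D18. Kcnt1, a sodium-activated subunit of neurons, had 4.40, 5.5 and 3.91 CPM at D7, against at most 0.0567 CPM in MEF (log2 6.79 ± 0.76), and fell by 2.45 on the log2 scale at D32 against D18. Its relative Kcnt2 had 2.00, 1.90 and 1.77 CPM at D32, against 0.0562, 0.213 and 0 CPM at D18 (log2 4.32, and 5.88 without D18 replicate 2), and 8.81 and 6.46 CPM in P-RPE. Among these 8 genes, 7 were higher (87.5%; all genes, 35.6%) and 1 lower (12.5%; all genes, 24.6%) at D32 than in MEF. The one that was lower was Kcnn4.

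Among inward rectifiers, Kcnj10 set the scale. Kcnj10, the glial channel that takes up potassium released by neurons, had 27.8, 76.3 and 21.8 CPM at D7, against 0.365, 0.277 and 0.170 CPM in MEF (log2 7.27 ± 0.55, and 6.48 without D7 replicate 2). It rose to 728, 600 and 797 CPM at D18 (log2 4.08 ± 0.39 against D7, adjusted p = 1.54e-06, and 4.82 without D7 replicate 2). At D32 it had fallen to 59.5, 48.0 and 54.7 CPM (log2 -3.71 ± 0.38 against D18), still above the 10.1 and 8.31 CPM of P-RPE (log2 2.55 ± 0.44). Its partner in mixed glial channels, Kcnj16, took the same shape with 41.3, 22.6 and 50.8 CPM at D18, against 0.489, 2.09 and 0.283 CPM at D7 (log2 5.30 ± 0.60, and 6.62 without D7 replicate 2), and 0.950 to 1.31 CPM at D32. The call of Kcnj16 in D7 against MEF ended without D7 replicate 2 (log2 1.45). The astrocyte markers summed to 71.4 to 74.5 CPM in MEF libraries and 1406 to 1970 CPM in D7 libraries. Their sum was 26199 to 38872 CPM in D18 libraries, 2190 to 2381 CPM in D32 libraries and 615 to 962 CPM in P-RPE. All 8 astrocyte markers were above 1 CPM in every group but MEF, where 6 were, and none was at 0. D7 replicate 2, the highest of its group for both channels, also had the highest astrocyte sum of its group, 1970 CPM, against 1590 and 1406 CPM in replicates 1 and 3. Whether a change in the number of astrocyte-like cells accounts for the channel levels was not tested.

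**Figure D4:**
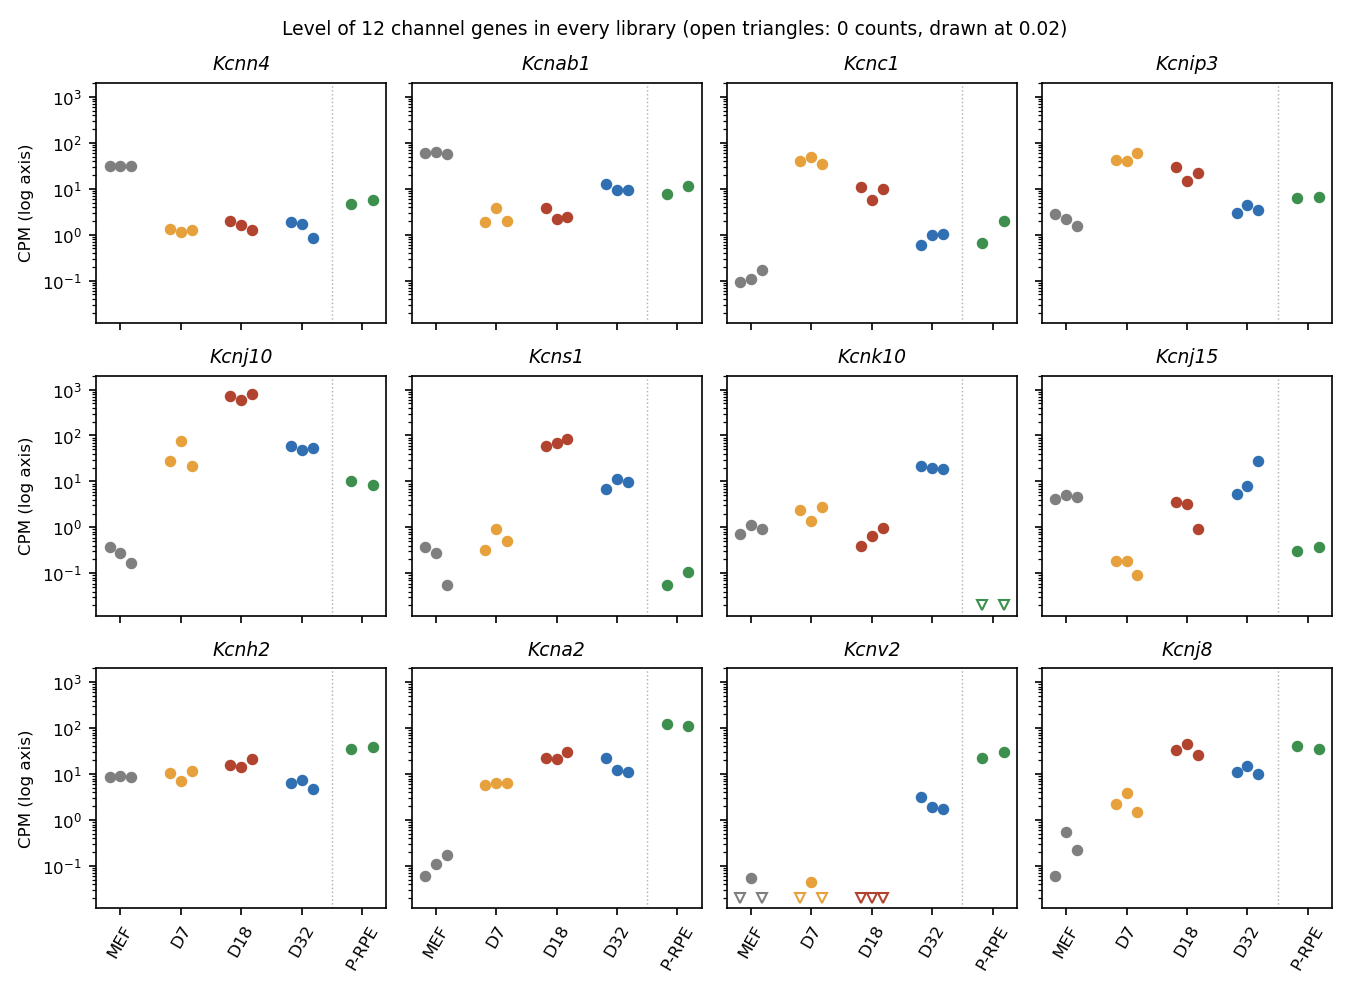
CPM, on a log axis, of 12 channel genes in every library of MEF, D7, D18, D32 and P-RPE. Each point is a library and open triangles mark 0 counts. Kcnn4 and Kcnab1 are highest in MEF, Kcnc1 and Kcnip3 at D7, Kcnj10 and Kcns1 at D18, Kcnk10 and Kcnj15 at D32, and Kcna2, Kcnv2 and Kcnh2 in P-RPE, while Kcnj8 overlaps between D18 and P-RPE.

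The pore subunit of the vascular ATP-sensitive channel, Kcnj8, rose at D18 to 34.4, 46.2 and 26.2 CPM, against 2.23, 3.95 and 1.51 CPM at D7 (log2 3.79 ± 0.38). At D32 it had 11.3, 15.1 and 9.97 CPM, against 41.2 and 36.1 CPM in P-RPE (log2 -1.67 ± 0.37). Abcc9, the sulfonylurea receptor with which Kcnj8 forms that channel, averaged 1.97 CPM in D7 cells and 2.29 CPM in D18 cells, against 12.1 CPM in D32 cells and 58.6 CPM in P-RPE. At D18 against D7, where Kcnj8 rose, the log2 change of Abcc9 was 0.22 and did not pass the test, while both genes were lower at D32 than in P-RPE. The smooth muscle and pericyte marker sum was 2825 to 5133 CPM at D32 and 1081 to 1168 CPM in P-RPE, where Rgs5 was its top gene and 7 of 8 markers were above 1 CPM. Of these 8, 3 were higher at D32 than in P-RPE, led by Acta2 (means of 3406 and 338 CPM), and 5 were lower, as Kcnj8 was, among them Rgs5 (173 and 346 CPM) and Myh11 (56.8 and 134 CPM). The part of such cells was not tested. Kcnj11, the pancreatic counterpart that pairs with Abcc8, had no count in MEF and was at 1.29 and 2.09 CPM in P-RPE, at least 59.0-fold higher. At D32 it had 0.422 to 0.783 CPM.

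Other inward rectifiers had their highest mean at D32 or in P-RPE, except Kcnj4 (at D7) and Kcnj3 (at D18). Kcnj2, the classical strong rectifier of muscle, had 6.26, 8.02 and 8.61 CPM at D32, against 0.393, 0.480 and 0.798 CPM at D18 (log2 3.77 ± 0.31) and 2.07 and 2.25 CPM in P-RPE. Kcnj15, known from kidney and other epithelia, had 5.28, 7.84 and 28.5 CPM at D32, against 0.308 and 0.375 CPM in P-RPE (log2 5.33 ± 0.83, and 4.25 without D32 replicate 3). Its rise over D18 (log2 2.43) was 1.35 without that library, and its call over MEF (log2 1.60) ended there (log2 0.52, adjusted p = 0.310). At the start of the course it had the lowest log2 change of the family, with 0.190, 0.182 and 0.0942 CPM at D7, against 4.05, 4.95 and 4.68 CPM in MEF (log2 -4.86 ± 0.75, adjusted p = 8.14e-05). Kcnj14, an inward rectifier of neurons, had the lowest log2 change of the family at D32 relative to P-RPE, with 0.426, 0.580 and 1.23 CPM against 9.01 and 24.7 CPM (log2 -4.5 ± 0.69, and -3.6 without P-RPE replicate 2). The higher of its 2 P-RPE levels was in replicate 2, the library with the higher rod and cone marker sum. Replicate 2 also had the higher astrocyte sum (962 CPM, against 615 CPM in replicate 1) and the lower RPE sum (58305 against 65131 CPM). The part of other cells in the Kcnj14 level was not tested. Kcnj4, a strong rectifier of neurons, fell to 0.646, 1.65 and 0.912 CPM at D18, against 9.07, 11.3 and 8.85 CPM at D7 (log2 -3.18 ± 0.39). The G protein-gated Kcnj9 had 2.22, 2.21 and 3.05 CPM at D18, against 0.380, 0.750 and 0.283 CPM at D7 (log2 2.39), and Kcnj3, of the same kind, 2.30, 2.53 and 2.17 CPM against 0.163, 0.545 and 0.518 CPM (log2 2.49). Kcnj3 shares 31.1% of its exons with Gm26794 on the other strand. Kcnj13, an inward rectifier of the RPE surface left out of the 90 and sharing 49.1% of its exons with Gigyf2 on the other strand, had 28.2, 18.6 and 15.9 CPM at D32, against 261 and 210 CPM in P-RPE, and Kcne2, a small auxiliary subunit of epithelia, had 0.951, 0.475 and 0.940 CPM, against 5.29 and 4.5 CPM.

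The two-pore leak genes held the sharpest contrast between the end product and the primary tissue. Kcnk10, a leak channel opened by stretch and lipids (chr12:98429437-98578310, minus strand), had 22.1, 19.3 and 18.9 CPM at D32 and no count in either P-RPE library, which is at least 490-fold higher at D32 against a floor of 3 counts over the P-RPE group. It had 0.731 to 1.11 CPM in MEF and 2.34, 1.41 and 2.73 CPM at D7. At D18 it was lower, at 0.393, 0.640 and 0.969 CPM (log2 -1.69 against D7). It then rose at D32 (log2 4.91 ± 0.34 against D18, adjusted p = 3.24e-08), where the change of medium and the later day cannot be told apart. Kcnk2, a relative of Kcnk10, had 7.41, 6.12 and 5.87 CPM at D32, against 0.336 and 0.643 CPM in P-RPE (log2 3.71 ± 0.51). It was already at 5.84 to 7.61 CPM in MEF. At D18 Kcnk2 was uneven, at 21.9, 6.51 and 21.8 CPM. Kcnk10 and Kcnk2 were thus higher at D32 than in P-RPE. None of the other 9 two-pore genes tested was called higher, and 4 were called lower. Kcnk4, another relative, had 0.501, 1.19 and 1.44 CPM at D32, against 1.43 and 2.68 CPM in P-RPE.

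Kcnk1, a weakly rectifying leak channel, had 53.2, 22.0 and 41.1 CPM at D18, against 2.66, 5.23 and 2.83 CPM at D7 (log2 3.43 ± 0.55), and 4.78, 3.64 and 6.03 CPM at D32. Kcnk7 had 4.24, 2.32 and 3.36 CPM at D18, against 0.318 to 0.706 CPM at D7 (log2 2.67). Both fell at D32 by over 3 on the log2 scale against D18 (-3.01 for Kcnk1 and -3.58 for Kcnk7). The acid-sensitive Kcnk3 had 12.8, 2.32 and 20.4 CPM at D7, against 0.457, 0.498 and 0.624 CPM in MEF (log2 4.48 ± 0.65, and 3.79 without D7 replicate 3). Replicate 2, its low library at D7, is the one that was high for Kcnj10.

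Some leak channels were lower at D7 than in MEF and had their highest mean in P-RPE. Kcnk5, opened by alkaline medium, had 1.63, 1.54 and 1.70 CPM at D7, against 6.33, 6.33 and 6.81 CPM in MEF (log2 -2.0 ± 0.25), and 3.71, 3.54 and 3.71 CPM at D32, against 16.1 and 20.0 CPM in P-RPE (log2 -2.30 ± 0.26). Kcnk13, known from microglia, had 1.58, 1.90 and 1.41 CPM at D32, against 16.1 and 12.8 CPM in P-RPE (log2 -3.15 ± 0.31). It was at 3.79, 4.35 and 5.24 CPM at D18, where the macrophage marker sum was 10.8 to 41.0 CPM with 4 of 8 markers above 1 CPM and none at 0, and at D32 the sum was 119 to 204 CPM with 8 of 8. In P-RPE, where Kcnk13 was highest, the sum was also highest, at 1035 to 1079 CPM with 8 of 8. The part of such cells in the Kcnk13 level was not tested. Kcnk6 had 1.14, 0.909 and 0.895 CPM at D7, against 4.29, 4.37 and 4.77 CPM in MEF (log2 -2.19 ± 0.32), and by D32 it was at 5.58, 4.70 and 4.33 CPM, against 4.70 and 7.13 CPM in P-RPE. That last difference was -0.28 ± 0.32.

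**Figure D5:**
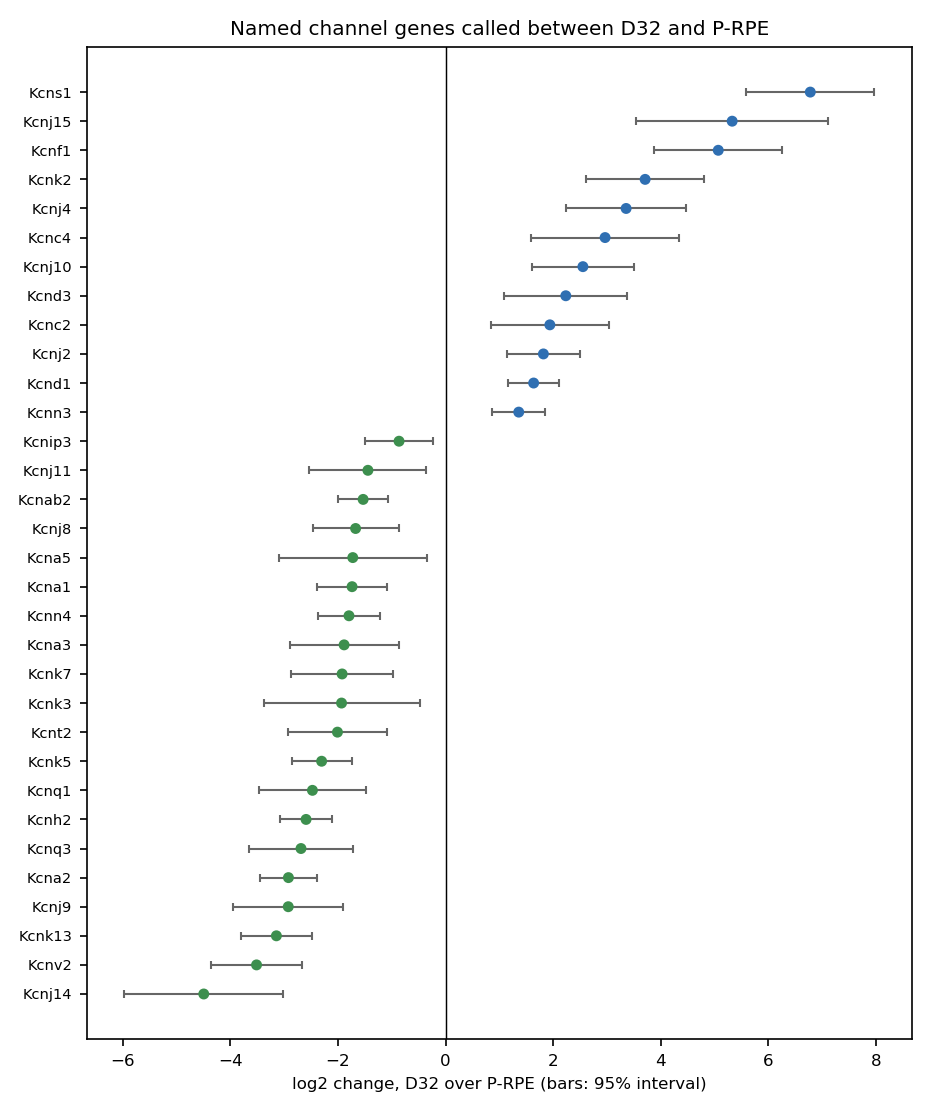
Log2 change of 32 channel genes called between D32 and P-RPE, D32 over P-RPE, with 95% intervals. The 12 blue points to the right are higher at D32, from Kcns1 (6.78) to Kcnn3 (1.36), and the 20 green points to the left are lower, down to Kcnj14 (-4.5). Kcnk10, with no count in P-RPE, is left out.

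Kcnj8, Kcna2, Kcne4 and Kcnh2 were among the channels with the highest levels per kb of exon in P-RPE. At D32, 3 of these 4 were lower than in P-RPE, with log2 changes of -2.92 for Kcna2, -2.59 for Kcnh2 and -1.67 for Kcnj8. The 12 RPE markers had a median log2 change of -2.86 in the same comparison, with 11 called lower. Kcne4 (0.60) did not pass the test, nor did Kcnab1 (0.14), Kcnk6 (-0.28) and Kcna6 (-0.19). The 95% interval for Kcnab1 ran from -0.45 to 0.73.

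Some neighbours on a chromosome moved together and others apart. Kcnj16 and Kcnj2 lie 38.2 kb apart on chromosome 11, and at D32 against D18 the first fell by 5.01 on the log2 scale while the second rose by 3.77. Kcna2 and Kcna3 lie 63.1 kb apart on chromosome 3, and at D18 against D7 Kcna2 rose (1.97) while Kcna3 fell (-2.32). Kcnj10 and Kcnj9, 11.9 kb apart on chromosome 1, both rose at D18 against D7 and both fell at D32 against D18. They parted in P-RPE, where Kcnj9 was higher than at D32 (2.63 and 3.19 CPM, against 0.250 to 0.580 CPM at D32) and Kcnj10 lower. Kcna1, Kcna6 and Kcna5 on chromosome 6 span gaps of 61.9 and 105 kb around Kcna1, and all 3 were higher at D18 than at D7.

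The proteins that work beside these channels were followed in lists of 15 partners and 16 pumps and cotransporters. Of 14 partners tested, 8 were higher and 2 lower at D7 than in MEF (all genes, 28.5% and 26.5%). At D32, 10 were higher and 2 lower than in MEF (all genes, 35.6% and 24.6%). Against P-RPE, 0 were higher and 9 lower at D32 (all genes, 27.1% and 26.8%). Their median log2 changes were 2.46, 2.15 and -1.25, beside 0.04, 0.26 and 0.02 over all genes. Dpp6, which accelerates A-type channels, averaged 10.6 CPM at D7 and 0.658 CPM in MEF (log2 4.01), like the A-type Kcnd3. Amigo1, which binds voltage-gated channels, averaged 17.0 CPM at D32, against 45.6 CPM at D18 (log2 -1.43) and 28.9 CPM in P-RPE (log2 -0.76), lower at D32 in both comparisons. Lrrc55, a gamma subunit of the large-conductance channel, averaged 9.78 CPM at D7 and 0.0950 CPM in MEF (log2 6.63), beside Kcnma1. Hcn2, itself a channel opened by hyperpolarisation and modulated by cyclic nucleotides, averaged 7.47 CPM at D32, against 31.4 CPM in P-RPE (log2 -2.07).

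Among 14 pumps and cotransporters tested, 6 were higher and 0 lower at D18 than at D7 (all genes, 29.2% and 27.4%). At D32, 3 were higher and 6 lower than at D18 (all genes, 29.9% and 26.1%). Against P-RPE, 1 was higher and 9 lower at D32 (all genes, 27.1% and 26.8%). Their median log2 changes were 0.54, -0.50 and -0.66, beside 0, 0.07 and 0.02 over all genes. Atp1b2, the sodium pump beta subunit of glia, averaged 0.731 CPM in MEF and 623 CPM at D7. Its mean was 4626 CPM in D18 cells, 336 CPM in D32 cells and 647 CPM in P-RPE. It was thus highest where Kcnj10 was, among the same astrocyte markers. Slc12a2, which brings in sodium, potassium and chloride, was the single one higher at D32 than in P-RPE, averaging 408 CPM against 246 CPM (log2 0.73).

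The 36 members that the naming rule given below left out reached few CPM in any group. Of these, 23 were tested and had group means of at most 3.94 CPM, the highest being Kcns3 in P-RPE, Kcnh7 in P-RPE (2.74 CPM), Kcnab3 in MEF (2.60 CPM) and Kcnip4 at D32 (2.43 CPM). Some of the 23 still changed widely in ratio, as Kcnj12 did, averaging 0.0392 CPM in MEF and 1.79 CPM in P-RPE. The 13 that were not tested reached at most 1.39 CPM in a single library, for Kcnh6. Kcnk16 had no count in any library, which limits it to at most 0.0914 CPM in the library with the smallest scaled total for a floor of 3 counts.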

How the data were processed

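The authors deposited raw counts, per the labels, with 1 whole number for each symbol in each library. Per the labels' protocols, total RNA was read on both ends on a NovaSeq after a NEBNext Ultra RNA kit. Per the submitters' processing notes, the tools were featureCounts, STAR 2.7.11a, limma 3.58.1 and edgeR 4.0.16, with builds GRCm38 and mm10 for mouse. The strand setting and the treatment of reads with several matches are not given in the sources used here, so overlapping genes are uncertain.

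From the counts, edgeR 4.0.16 (R 4.3.3) fitted 1 quasi-likelihood model with 5 group means to all 14 libraries, after TMM scaling and filterByExpr by group. Each of 6 comparisons was a contrast, with Benjamini-Hochberg adjustment over all 20562 genes tested and calls at an adjusted p under 0.05. SE values were obtained by dividing each log2 change by the square root of F. Lengths are exon unions of GENCODE vM21 (GRCm38), which matched 90 of 90 members. A fold against 0 counts is a bound at 3 counts over the group, and with 1 to 3 counts a ratio with an exact 95% interval. These ratio intervals and floors cover counting error only. The 95% intervals of log2 changes come from the quasi-likelihood model and take in the spread between libraries.

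Named genes have a mean of at least 5 CPM in a group (44), or are among the 10 highest or lowest called changes of a comparison at 1 CPM or more with no overlap of libraries (10 more). Some genes that met this rule are not reported here. Genes named only as low or untested were chosen after their values were seen. The members, classes and lists were chosen with earlier results of these data known. The pipeline was tested on simulated data. Alternatives were RLE size factors, library totals, no filter, DESeq2 1.42.0, the 2 groups alone, a replicate block and leaving out each of the 14 libraries. Of the replicate libraries, none were identical. A human table of 10 columns was not analysed here.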

Additional observations from a re-analysis of the deposited data

How the results depend on the processing

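No count of members called moved by over 1.5 times under any alternative tried. Across the alternatives, members higher in D7 against MEF numbered 35 to 47 and lower 8 to 10, in D18 against D7 25 to 28 and 14 to 19, in D32 against D18 15 to 16 and 28 to 36, in D32 against MEF 37 to 46 and 7 to 11, in D32 against P-RPE 13 to 18 and 20 to 28, and in P-RPE against MEF 37 to 48 and 10 to 14. Of 222 called log2 changes of named genes, 29 lost the call in at least 1 setting, none reversed, and 43 moved over 1.5-fold when 1 library was left out. Same-numbered libraries showed no large shared deviation (r of -0.0967 to 0.0953 over 26 pairs). These correlations rest on few libraries per group, so they cannot decide whether the numbers pair the samples. With the replicate block, 42 members were higher and 8 lower in D7 against MEF, and 15 and 25 in D32 against P-RPE. Library totals in place of TMM shifted the median gene by 0.32 (log2) in D7 against MEF, -0.21 in D18 against D7, 0.20 in D32 against MEF and 0.23 in D32 against P-RPE. No filter shifted it by -0.14 in P-RPE against MEF. With 2 P-RPE libraries, each value there rests on a pair.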
